A study of Mus musculus with 2 samples.

Results

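Annexin family genes were examined in bulk RNA-seq of whole mouse kidneys. The members were chosen by symbol, as the 10 genes Anxa1 to Anxa8, Anxa11 and Anxa13, and 9 of them were found among the 20002 genes analysed. Anxa8 was not analysed here. All 9 passed the filter of at least 10 scaled reads in 1 library, with at least 277 reads per gene in the Control and 80 in the library of the CKO mice.

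The study examined what loss of Regnase-2 (Reg-2), an RNase that degrades mRNA, does in the renal proximal tubule. Reg-2 CKO mice were C57BL/6J mice given AAV9 that carried shRNA against Regnase-2 through the tail vein at 11 weeks of age. Control mice received AAV9 that the methods describe in one place as carrying control shRNA and in another as empty. Each group was represented by 1 library, so the differences have no replicate check and no p-value was computed. The labels call the model a conditional knockout of the proximal tubule, whereas the methods describe a knockdown by a vector said to transduce mainly that segment. RNA came from the left kidney, and the age at harvest is 14 weeks in the RNA-seq methods and 16 weeks in the AAV9 methods. Whether a library came from 1 mouse or from several is not stated. The Control library held 38851231 reads and the CKO library 43588721 after a constant was subtracted from every deposited value. The authors call the deposited values normalized counts, so reading them as reads plus a constant is an inference.

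Annexins are cytosolic proteins that bind acidic phospholipids when calcium rises, through a conserved core of repeats, while their N-terminal tails differ and bind partners such as S100 proteins. They take part in vesicle traffic, in linking the membrane to actin, in sealing of torn plasma membrane and in control of inflammation. In the kidney, members are found in tubular epithelium as well as in leukocytes, fibroblasts and vessels.

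The target of the shRNA was read first. Zc3h12b, the Regnase-2 gene, counted 47 reads in the Control against 59 under the CKO label, for a log2 ratio of -0.25 after scaling. The interval of the log2 fold, -0.83 to 0.33, spans 0, so with so few reads no difference could be detected. The labels are therefore not checked by the targeted gene, and the phrase "the library labelled CKO" is used for that reason. CKO reads were multiplied by 0.667, the median gene ratio of Control to CKO, and log2 ratios carried a pseudocount of 1. Fold changes were taken without a pseudocount. Their 95% intervals are exact Clopper-Pearson intervals and, like every interval here, cover counting error only.

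Promoter sequences from RefSeq (GRCm38.p6) were matched for 7 of the 10 members, in 9 windows, and the 250 bases before each start were searched on both strands. Anxa3, Anxa6 and Anxa13 had no entry. The letters of the AP-1 motif were TGANTCA. For NF-kB a core, GGGANTTTC, was used, for STAT the letters TTCNNNGAA and for CRE the letters TGACGTCA. The TATA box was sought as TATAAA and only on the strand of the gene. The motifs were chosen after the data had been seen. Stretches of 30 bases are shown, with the matched motif in capitals, for every match found in the 9 windows.
Anxa1, TATA box, chr19:20390682-20390711, minus strand: tcatatccTATAAAatcaggagtccaaccc
Anxa2, TATA box, chr9:69453653-69453682, plus strand: aggatggggcgggTATAAAagccccaccca
Anxa2, AP-1, chr9:69453580-69453609, plus strand: aagttggaTGAGTCAcccagcagggtggga
Anxa4, first of its 2 starts, NF-kB core, chr6:86793618-86793647, minus strand: tccggggaGGGACTTTCctgtgggcaaagg

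The first base of the TATA motif lay 32 bases before the start of Anxa1 and 17 before that of Anxa2. Both stretches lie inside the gene as GENCODE M21 draws it, which places these starts further upstream. The AP-1 letters of Anxa2 began 95 bases before the start and the NF-kB letters of Anxa4 55 bases before the first of its 2 starts. The window of the other Anxa4 start held none of the 5 motifs. Nor did any window of Anxa5, Anxa7, Anxa8 and Anxa11. Of 32851 promoter windows of all genes, 7.59% held the TATA box letters, 6.75% those of AP-1, 7.02% those of STAT, 1.55% those of CRE and 0.941% the NF-kB core. Any of the 5 was found in 21.7% of these windows and in 3 of the 9 annexin windows. A match describes letters in a window and shows no binding.

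Anxa1 encodes annexin A1, a protein induced by glucocorticoids that limits leukocyte recruitment through formyl peptide receptors. The gene lies at chr19:20373428-20390944 of GRCm38. It counted 323 reads in the Control against 1728 in the library labelled CKO, and the library labelled CKO was the higher of the pair. After scaling this was 3.57-fold, with an interval of 3.17 to 4.03, and the log2 ratio was 1.83.

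Anxa2 encodes annexin A2, which forms a complex with S100a10 at the cell surface and there assembles plasminogen and its activator. It lies at chr9:69453620-69491795. The Control held 1852 reads of it against 6908 in the library labelled CKO. Scaled, the library labelled CKO was 2.49-fold higher (interval 2.36 to 2.62), and the log2 ratio was 1.31. An antisense gene, Gm16144, overlaps an Anxa2 exon and the genome holds an Anxa2 pseudogene, so some reads may belong to these.

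Anxa3 encodes annexin A3, which is abundant in neutrophils and is also made by epithelia. It lies at chr5:96793339-96845966. It counted 301 reads in the Control against 2612 in the library labelled CKO, the highest ratio among the 9 annexins. The fold was 5.79 (interval 5.13 to 6.54), the log2 ratio was 2.53, and Anxa3 ranked 369 of the 17469 genes kept. Gm42603 overlaps it on the same strand, so its count is uncertain to that extent.

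Anxa4, Anxa5 and Anxa6 encode membrane-binding annexins that assemble on exposed phospholipid and take part in membrane resealing. Anxa5, the protein used to detect phosphatidylserine on dying cells, counted 3313 reads in the Control against 8670 in the library labelled CKO. Its fold was 1.74 (interval 1.68 to 1.82), and the gene lies at chr3:36448923-36475894. Anxa4, known from secretory and absorptive epithelia, had 1941 and 5093 reads at chr6:86736840-86793584. Its fold was 1.75, with an interval of 1.66 to 1.84, and an antisense gene, Gm44036, overlaps it. These 2 genes could not be told apart by their ratios, with log2 values of 0.80 for Anxa5 and 0.81 for Anxa4.

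Anxa6 is the annexin with a duplicated core and lies at chr11:54979108-55033445. It counted 1577 reads in the Control against 4465 in the library labelled CKO. The fold was 1.89 (interval 1.78 to 2.0) and the log2 ratio 0.92. Anxa4, Anxa5 and Anxa6 were thus all higher in the library labelled CKO but short of the 2-fold threshold, which the upper limit of Anxa6 just reached.

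Anxa7 and Anxa11 carry long N-terminal tails. Anxa7 is linked to membrane fusion and secretion, and Anxa11 to tethering of RNA granules to lysosomes. Anxa7 (chr14:20455260-20480133) counted 5552 reads in the Control against 7804 in the library labelled CKO. The log2 ratio of Anxa7 was -0.09, which became 0.33 with equal library totals and 0.49 for the values as deposited, so it has no fixed direction. Anxa11 (chr14:25842156-25886804) counted 1862 and 2877 reads, for a log2 ratio of 0.04. The interval of its fold, 0.971 to 1.09, spans 1. That log2 ratio became 0.46 with equal totals and 0.63 for the values as deposited, so it depends on the scaling. Anxa11os overlaps Anxa11 on the opposite strand. The kit kept strand, but the strand setting of the counting is not stated, so the reads of such antisense pairs cannot be told apart.

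Anxa13 encodes a lipid-anchored annexin of intestinal and renal epithelium that takes part in delivery to the apical membrane. It lies at chr15:58341471-58389244, where GENCODE M21 annotates only a non-coding transcript and RefSeq a protein-coding gene. It counted 277 reads in the Control against 80 in the library labelled CKO, and it was the only one of the 9 with fewer reads in the library labelled CKO before scaling. After scaling, the Control was 5.19-fold higher, with an interval of 4.04 to 6.75. The log2 ratio was -2.36, and 0.578% of all genes kept had a lower one.

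**Figure D1:**
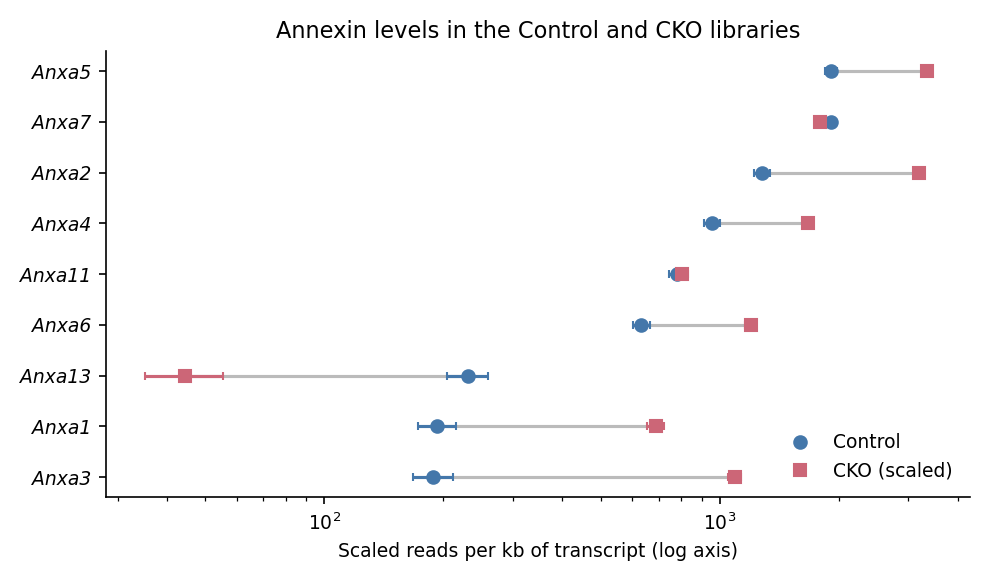
Scaled reads per kb of transcript (log axis) for the 9 annexins in the Control library (circles) and the library labelled CKO (squares), with 95% exact Poisson intervals for counting error and 1 library per group. Anxa3, Anxa1 and Anxa2 are far to the right in the library labelled CKO, Anxa7 and Anxa11 almost coincide, and Anxa13 lies to the left.

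Counted together, 3 of the 9 annexins (Anxa1, Anxa2 and Anxa3) were higher by 2-fold or more in the library labelled CKO, beside 13.4% of all 17469 genes kept. Lower by 2-fold or more was 1 annexin, Anxa13, beside 5.35% of all genes. The median log2 ratio was 0.81 for the annexins and 0.02 for all genes. The share of genes past 2-fold was smaller among more highly expressed genes, so those with a mean of at least 500 scaled reads were also counted, a limit chosen after the data were seen. Of 8692 such genes, 3.93% were higher by 2-fold or more and 4.06% lower by 2-fold or more. Anxa1 and Anxa3 pass that limit through their values in the library labelled CKO and Anxa13 does not pass it, so no count of annexins is set beside these shares. Whether the family stands apart from other genes was not tested.

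**Figure D2:**
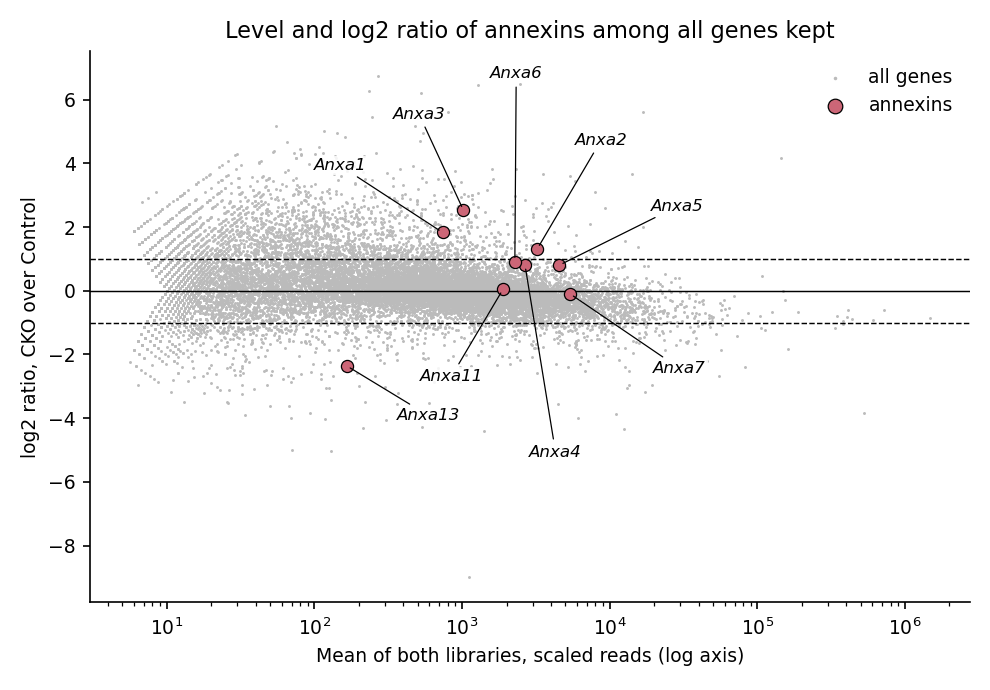
Log2 ratio of the library labelled CKO over Control against the mean of both libraries in scaled reads (log axis), with all 17469 genes kept in grey, the 9 annexins in red and dashed lines at 2-fold. Anxa3, Anxa1 and Anxa2 lie above the upper line, as do 13.4% of all genes kept, and Anxa13 lies below the lower line, as do 5.35%.

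The direction of most members did not depend on the scaling or the floor. The values as deposited change both at once. With equal totals the median log2 ratio of all genes moved from 0.02 to 0.44, and with the values as deposited to 0.57. Of all genes past 2-fold, 71.4% were higher in the main setting, 89.9% with equal totals and 96.5% for the values as deposited. In both of these settings 6 annexins were higher by 2-fold or more, now with Anxa4, Anxa5 and Anxa6, beside 21.9% of all genes with equal totals and 17.9% for the values as deposited. With equal totals the annexin median was 1.23 beside 0.44 for all genes, against 0.81 beside 0.02 in the main setting. Anxa3 ranged from 2.49 to 2.99 over the scalings, floors and pseudocounts, Anxa1 from 1.80 to 2.31 and Anxa2 from 1.29 to 1.88. Anxa13 stayed lower by 2-fold or more throughout, from -2.39 to -1.25. Anxa11 ranged from 0.02 to 0.63, and Anxa7 changed sign as given above.

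**Figure D3:**
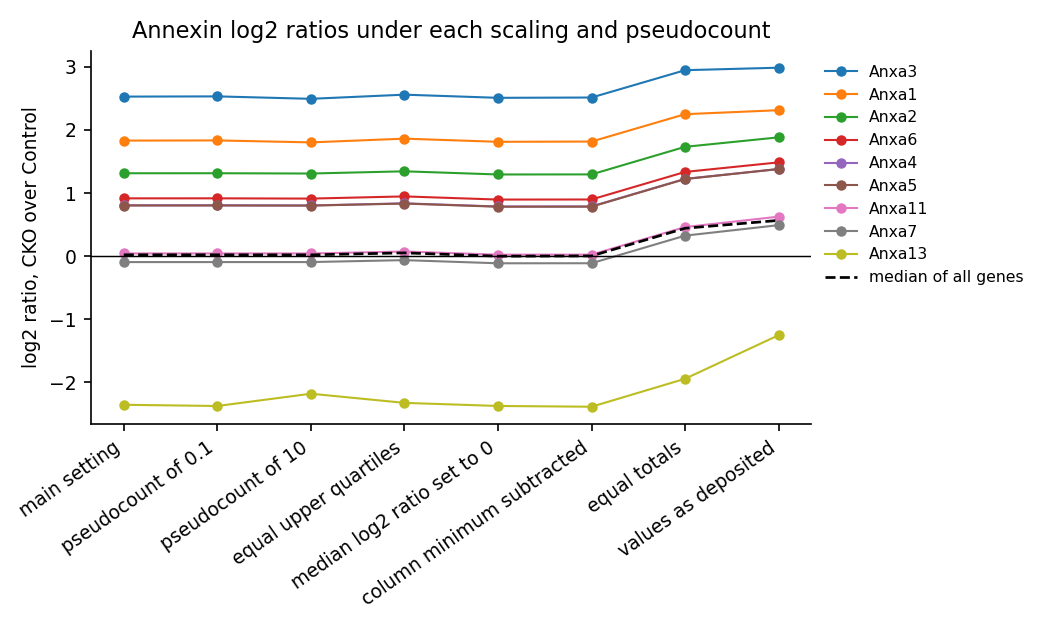
Log2 ratio of each annexin under the main setting and 7 alternatives of scaling, floor and pseudocount, with the median of all genes as a dashed line. Anxa4 and Anxa5 overlap, Anxa7 alone lies on both sides of 0, and Anxa3, Anxa1, Anxa2 and Anxa13 keep their side of 0 in each setting.

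Levels of different members were compared as scaled reads per kb of the longest protein-coding transcript in GENCODE M21. Anxa13 has none there, so its non-coding transcript of 1201 bases was used, and its level and share rest on that length. In the Control library Anxa5 and Anxa7 led, at 1914 and 1912 per kb, and their counting intervals overlapped. Anxa2 followed at 1280, Anxa4 at 956, Anxa11 at 778 and Anxa6 at 634. Anxa13 at 231, Anxa1 at 193 and Anxa3 at 189 closed the order, and there neighbouring intervals overlapped.

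In the library labelled CKO, Anxa5 led at 3339 per kb and Anxa2 came second at 3183. Anxa7 was at 1792, Anxa4 at 1673, Anxa6 at 1196, Anxa3 at 1092, Anxa11 at 801, Anxa1 at 688 and Anxa13 at 44.4. No neighbouring counting intervals overlapped in this library. Anxa3 moved from place 9 to place 6, and Anxa13 from 7 to 9.

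The makeup of the family therefore differed between the libraries. Summed over the 9 members, the level was 8085 per kb in the Control against 13807 in the library labelled CKO, a ratio of 1.71. Anxa7 made up 23.6% of the Control sum and 13.0% of the CKO sum. Anxa2 went from 15.8% to 23.1% and Anxa3 from 2.33% to 7.91%, while Anxa5 held 23.7% and 24.2%. These shares within the family do not depend on scaling between libraries. As a share of all reads, which scales each library by its total, the annexins took 0.0438% in the Control (Clopper-Pearson interval 0.0431 to 0.0444), against 0.0923% in the library labelled CKO (0.0914 to 0.0932). Under the main scaling the summed annexin reads differed 1.58-fold (1.55 to 1.61).

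Partners that bind annexin tails were read in full. S100a10, which pairs with annexin A2, counted 1979 reads in the Control against 4760 in the library labelled CKO (log2 ratio 0.68). S100a11, which pairs with annexin A1, counted 2752 and 7658 reads, for a log2 ratio of 0.89. Ahnak, a giant scaffold that binds the complex of annexin A2 and S100a10, counted 4043 and 12110 reads, for a log2 ratio of 0.998, just short of 2-fold. S100a4 counted 134 and 514 reads, for a log2 ratio of 1.35. S100a6, which binds several annexins, had 270 and 4231 reads and the highest log2 ratio of the group, 3.38. All 5 were higher in the library labelled CKO, 2 of them at least 2-fold, with a median log2 ratio of 0.998. Of all genes kept, 51.5% were above 0 and 13.4% higher by 2-fold or more. The ratio of S100a10 was below that of its partner Anxa2, whose log2 ratio was 1.31.

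Around annexin A1, 8 of 11 genes of the receptors and the glucocorticoid axis were analysed. The receptor genes Fpr1, Fpr2 and Fpr3 were not analysed here. Of the 8, 1 was higher by 2-fold or more and 0 lower, beside 13.4% and 5.35% of all genes, and the median log2 ratio was 0.32. Pla2g4a, the cytosolic phospholipase that annexin A1 restrains, counted 256 reads in the Control against 958 in the library labelled CKO (log2 ratio 1.32). The lowest was Fkbp5, a glucocorticoid-induced chaperone, with 5033 and 5258 reads, for a log2 ratio of -0.52. Of the 8, 6 lay above 0 and 2 below, beside 51.5% of all genes above 0.

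In the plasminogen system, which annexin A2 serves as a surface receptor, 8 of the 9 genes reported on were analysed and Serpinb2 was not. Past 2-fold were 2 higher genes and 1 lower gene, beside 13.4% and 5.35% of all genes, with a median log2 ratio of 0.54. Serpine2, a serine protease inhibitor that acts on plasminogen activators, counted 241 reads in the Control against 1878 in the library labelled CKO (log2 ratio 2.37). Plaur, the urokinase receptor, had 116 and 704 reads and was at 2.01. The lower gene was Serpinf2, the plasmin inhibitor, with 14414 and 5332 reads, for a log2 ratio of -2.02.

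Genes of plasma membrane repair numbered 20 of 21 analysed, and Trim72 was not analysed here. Their median log2 ratio was 0.06, and 1 was higher by 2-fold or more and 0 lower, beside the same 13.4% and 5.35%. That gene was Myof (myoferlin), a relative of dysferlin, with 603 reads in the Control, 5671 in the library labelled CKO and a log2 ratio of 2.65. Ehd1, an endocytic ATPase, was the lowest, with 4923 and 4837 reads, for a log2 ratio of -0.61. As a list these genes lay close to the median of all genes.

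For exposure and binding of phosphatidylserine, the lipid that annexin A5 recognises, 13 of 14 genes were analysed and Timd4 was not. The median log2 ratio was 0.28, with 2 higher by 2-fold or more and 1 lower, again beside 13.4% and 5.35% of all genes. Axl, a receptor that takes part in the uptake of dying cells, counted 922 and 4734 reads, for a log2 ratio of 1.77. Pros1, which bridges dying cells to relatives of Axl, had 666 and 2675 reads and was at 1.42. Atp11a, a flippase that keeps the lipid on the inner leaflet, counted 89132 reads in the Control against 36548 in the library labelled CKO (log2 ratio -1.87). Havcr1, which also takes part in the uptake of dying cells, was not on this list and is outside its counts and median. It counted 1639 reads in the Control against 21332 in the library labelled CKO (log2 ratio 3.12).

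**Figure D4:**
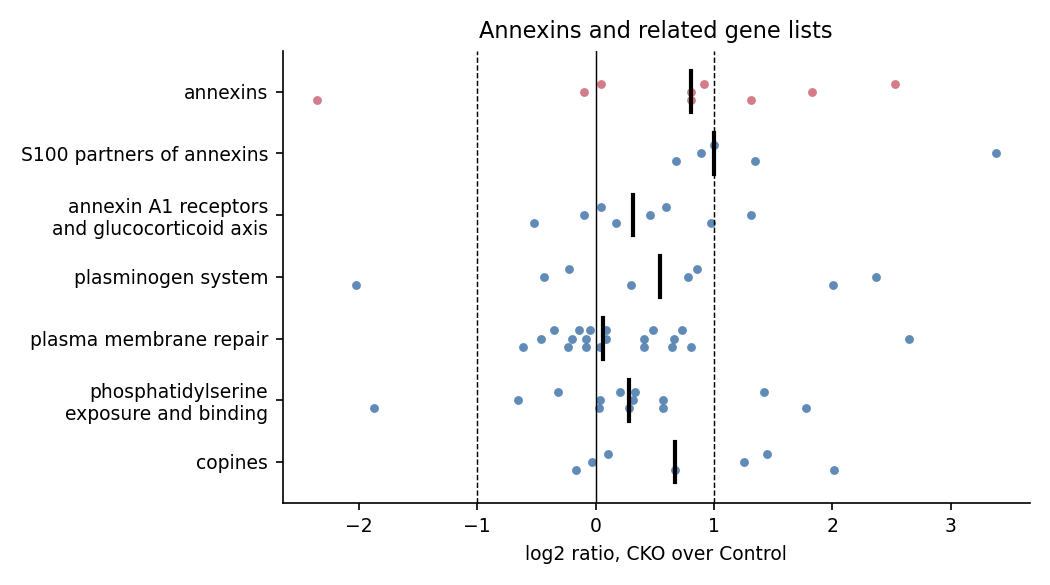
Log2 ratio of the library labelled CKO over Control for each gene kept of the annexins (red) and of 6 related lists (blue), with list medians as black bars and dashed lines at 2-fold. The list of S100 partners, which includes Ahnak, lies wholly above 0, and its median of 0.998 is the value of Ahnak. The membrane repair list has a median of 0.06 with Myof apart at 2.65.

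Markers of cell types that differed between the libraries are given as values, and their part in the annexin ratios was not tested. Counts of markers past 2-fold stand beside the 13.4% higher and 5.35% lower of all genes. In whole kidney, fewer cells of a type and less RNA per cell cannot be told apart. Of 10 proximal tubule markers, 9 had lower values in the library labelled CKO, 4 of them by 2-fold or more, with a median log2 ratio of -0.95. Their sum was 638375 reads in the Control and 326367 scaled reads in the library labelled CKO, and Slc27a2 had the most reads, 157696 and 100638. With equal totals the median log2 ratio of these markers was -0.53, and for the values as deposited it was -0.36. The defining markers of this segment were present in both libraries.

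Of 11 markers of injured tubule, 10 were analysed, 9 of them higher by 2-fold or more, with a median log2 ratio of 3.08. Krt20 was not analysed here. The sum was 30583 reads in the Control and 344856 scaled reads in the library labelled CKO, and Spp1 had the most reads, 15360 and 412220. Lcn2 had 28 and 3797 reads and Havcr1 1639 and 21332, with log2 ratios of 6.45 and 3.12. The annexin with the highest ratio, Anxa3, lay below the median of these injury markers.

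Macrophage markers were higher in 12 of 12 and higher by 2-fold or more in 11, with a median log2 ratio of 2.77. They summed to 4350 reads in the Control and 21803 scaled reads in the library labelled CKO. Lyz2 had the most reads in the library labelled CKO, 9836, but not in the Control, where it had 518. Markers of fibroblasts and pericytes were higher by 2-fold or more in 8 of 9, with a median of 1.86. Their sum went from 7076 to 23482 scaled reads. Col3a1 led in the library labelled CKO with 9779 reads, but not in the Control, where it had 1107. Macrophages and fibroblasts also express annexins, and what part these cells have in the annexin ratios was not tested.

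Neutrophils are rich in Anxa1 and Anxa3, and their markers were few in reads. Of 11, 4 were analysed, with 2 higher and 1 lower by 2-fold or more and a median log2 ratio of 1.21. They summed to 58 reads in the Control and 178 scaled reads in the library labelled CKO. Csf3r led with 22 and 177 reads. The lower marker was Ltf, named after its values were seen, with 16 and 7 reads. Ly6g, Retnlg, Cxcr2, Mmp8, Camp, Ngp and Elane were not analysed here. No neutrophil marker analysed had more than 177 reads, and what part neutrophils have in the annexin ratios was not tested.

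Lymphocyte markers were scarce as well. Of 7 T cell markers, 6 were analysed and 6 were higher by 2-fold or more, with a median of 1.80. They summed to 83 reads in the Control and 313 scaled reads in the library labelled CKO, and Lck led with 28 and 160 reads. Cd3d was not analysed here. Of 5 B cell markers, Cd79b alone was analysed, with 23 and 40 reads and a log2 ratio of 0.21.

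Other segments and vessels lay nearer to the median of all genes. The 7 markers of thick limb and distal tubule had a median of -0.04 and summed to 146864 and 176632 scaled reads, with Umod at 90047 and 187056 reads. Of these, 1 was lower by 2-fold or more. The 9 collecting duct markers had a median of 0.35 and summed to 18739 and 24380, with Aqp2 at 4762 and 12359 reads. Podocyte markers, 5 in all, had a median of -0.11 and sums of 8426 and 8023, with Podxl at 4782 and 7595 reads. The 8 endothelial markers had a median of -0.08 and sums of 15372 and 14195, with Plvap at 3854 and 5411 reads. None of the collecting duct, podocyte and endothelial markers analysed passed 2-fold in the main setting. The negative medians of these lists changed sign both with equal totals and for the values as deposited.

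Tissue at the edge of the kidney was checked through urothelial, mesothelial and fat markers. Of 7 urothelial markers, 6 were analysed, 4 higher by 2-fold or more, with a median of 1.69 and sums of 90 and 231 scaled reads. Trp63 led with 40 and 81 reads, and Krt14 was not analysed here. Of 4 mesothelial and fat markers, 2 were analysed, Upk3b and Msln, with a median of 1.61 and sums of 38 and 129. Upk3b had 30 and 158 reads. Adipoq and Cfd were not analysed here. No marker analysed in any list had 3 or fewer reads in both libraries.

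**Figure D5:**
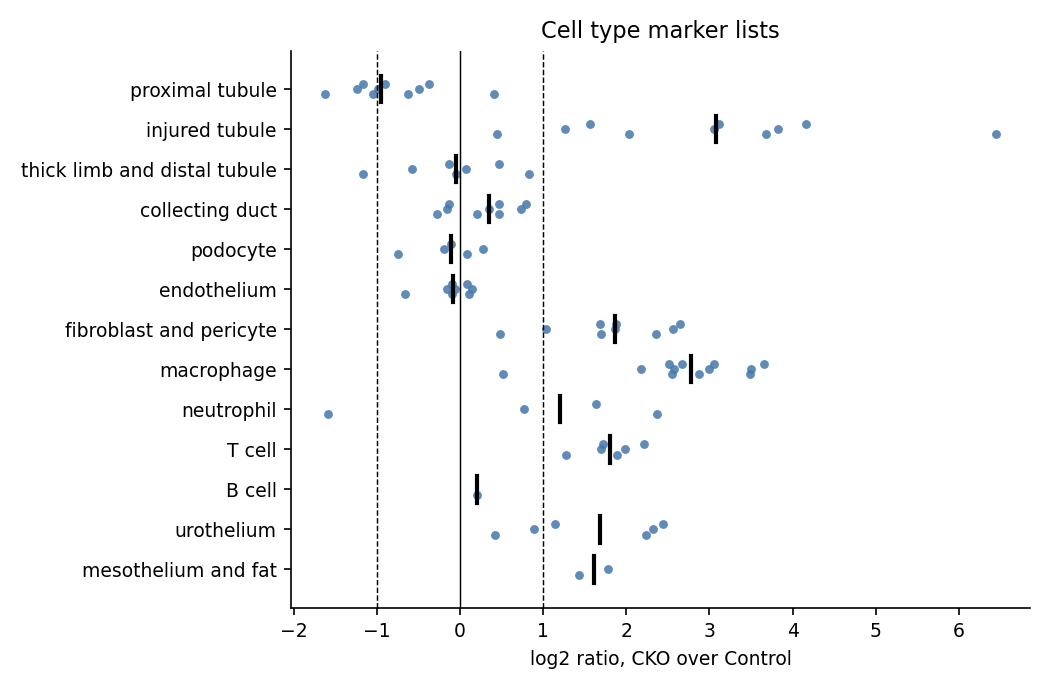
Log2 ratio of the library labelled CKO over Control for each marker kept in 13 cell type lists, with list medians as black bars and dashed lines at 2-fold. Injured tubule (median 3.08) and macrophage (2.77) markers lie to the right and 9 of 10 proximal tubule markers (median -0.95) to the left of 0.

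Genes nearest to 3 annexins were found by Euclidean distance over the log2 reads of the 2 libraries, which says nothing of shared function. Nearest to Anxa3 were Col1a1, at a distance of 0.083, with 288 reads in the Control against 2711 in the library labelled CKO, then Serpinb6b at 0.17 and Tgtp2 at 0.19. Nearest to Anxa13 were Gm29012 at 0.19, Gm35591 at 0.26 and Ptchd1 at 0.35. Nearest to Anxa7, the member with the most scaled reads summed over both libraries, were Trim44, with 5520 and 7899 reads at a distance of 0.019, Rpl38 at 0.022 and Rpl36 at 0.024. The neighbours of Anxa13 were the most distant of the 3 sets.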

How the data were processed

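The processed gene table of 2 whole-kidney libraries, 1 from Control and 1 from Reg-2 CKO mice, was used. Per the study methods and the submitters' processing notes, the authors aligned reads to mm10 (STAR 2.7.3a), assigned them to genes (HTSeq) and normalized the counts (DESeq2); FPKM values from Cufflinks 2.2.1 were not used here. The deposited values are whole numbers that the authors call normalized counts, and they were treated as a score with no standard unit. The Control column had a lowest value of 35 and the CKO column of 51, and the column totals differed. Each column was therefore taken as reads plus a constant, an inference from the values, and 34 and 50 were subtracted. The intervals treat the result as read counts and rest on that inference.

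CKO reads were scaled by the median gene ratio of Control to CKO, and log2((CKO + 1)/(Control + 1)) was computed. A gene entered when either library reached 10 scaled reads, and changes were counted from 2-fold. With 1 library per group no test was made. A library with 3 or fewer reads would have given a bound in place of a fold. Members and lists were chosen with earlier results of these data known. The lists were S100 partners with Ahnak, annexin A1 receptors and glucocorticoid axis, plasminogen system, membrane repair, phosphatidylserine, copines and 13 cell type marker lists. In the plasminogen list, 1 gene is not reported here and was left out of the counts and the median.

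Named genes were all members, the S100 partners and the highest, lowest and 2-fold members of each pathway list. The marker with the most reads over both libraries was named in each marker list. So were the nearest genes of 3 annexins, and Zc3h12b, Lcn2 and Havcr1. Other genes were named as not analysed. Lengths and gene coordinates came from GENCODE M21 (GRCm38, the mm10 build) and promoters from RefSeq.

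The alternatives were other pseudocounts, filters, thresholds, scalings and floors. All steps ran in Python 3.11.15 (scipy 1.17.1, numpy 2.4.6, pandas 2.3.3, matplotlib 3.10.9) after they had been tested on simulated data.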

Additional observations from a re-analysis of the deposited data

How the results depend on the processing

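No paired analysis was possible because there was only 1 library in each group. Thresholds of 1.5-fold and 4-fold gave 6 and 1 annexins higher, with 21.8% and 4.29% of all genes higher and 13.9% and 0.95% lower, as the thresholds themselves bring about. Equal totals gave 6 annexins higher, an annexin median of 1.23, and 21.9% of all genes higher and 2.47% lower. The values as deposited gave 6 annexins higher, a median of 1.38, and 17.9% of all genes higher and 0.655% lower. With a mean of at least 500 scaled reads, added after the data were seen, 3.93% of the 8692 genes above that limit were higher, and the cause was not tested. In each of the other settings run, 1 annexin, Anxa13, was lower by the threshold or more.

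With equal totals Anxa7 reversed to 0.33, and the medians of the thick limb and distal tubule, podocyte and endothelium lists to 0.37, 0.30 and 0.34. With the values as deposited these were 0.49 for Anxa7 and 0.54, 0.48 and 0.50 for the lists. Beyond the change of scale and floor, the cause was not tested. Each other value for a single annexin or list was counted once for every alternative in which it was run. So counted, 36 moved beyond their counting interval without a change of direction and 95 did not. All 36 were with equal totals or for the values as deposited. Ratios of marker lists with few reads, such as neutrophils and B cells, are limited by depth. With a pseudocount of 10 the medians of urothelium, T cells and neutrophils were 1.05, 1.31 and 0.81. With equal totals they were 2.08, 2.21 and 1.61.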

Other observations

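Anxa9, an annexin outside the rule that chose the members, counted 92 reads in the Control against 351 in the library labelled CKO (log2 ratio 1.34). Its exons overlap those of a gene on the same strand and of Mindy1 on the opposite strand, so its count is uncertain. Anxa10 was not analysed here.

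Copines, another family of calcium-dependent phospholipid-binding proteins, were read beside the annexins. Of 9, 7 were analysed, 3 higher by 2-fold or more and 0 lower, beside 13.4% and 5.35% of all genes. Their median log2 ratio was 0.67 beside 0.02 for all genes. Cpne7 counted 19 and 120 reads, for a log2 ratio of 2.02, Cpne2 113 and 464 reads and 1.44, and Cpne8 149 and 535 reads and 1.25. Cpne4 was the lowest, with 167 and 223 reads and a log2 ratio of -0.17. Cpne6 and Cpne9 were not analysed here.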
